A study of Mus musculus with 8 samples.

Results

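Glutathione and antioxidant enzyme genes were followed in spinal cord of mice 7 days after spinal cord injury. The members are the protein-coding genes of the deposited count table whose names are those of glutathione transferases, glutathione peroxidases, peroxiredoxins, thioredoxins or thioredoxin reductases, together with 16 single genes of glutathione synthesis, superoxide and peroxide removal, NRF2 control and ferroptosis. The rule finds 59 members among 54532 genes, of which 22046 are protein coding. The rule itself uses names and gene type and no measured value. RNA-seq was made from 4 samples labelled Tia1f/f (the control group) and 4 samples labelled Tia1Nestin-CKO (the CKO group). Tia1 encodes an RNA-binding protein of stress granules. The control mice carry the floxed Tia1 allele without the deletion named in the other genotype, and both groups were injured, so no uninjured cord is part of the comparison. Nestin marks neural stem and progenitor cells, and a deletion made in them passes to the cells they give rise to, the Nestin lineage. The labels do not state which cells of the tissue carried the deletion, or whether immune, vascular or fibroblast cells were among them. The labels do not say that each sample came from a separate mouse, and p-values measure the spread between these samples, whatever its source.

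Glutathione is a small thiol made from glutamate, cysteine and glycine. Cystine enters the cell through the antiporter SLC7A11, glutamate-cysteine ligase joins the first amino acids, and glutathione synthetase adds glycine. Glutathione peroxidases spend glutathione to reduce peroxides, glutathione reductase restores it, and glutathione transferases attach it to reactive compounds. Peroxiredoxins and thioredoxins form a parallel route of peroxide removal. Many genes of both routes carry antioxidant response elements, which the transcription factor NRF2 (gene Nfe2l2) binds once KEAP1 no longer sends it to degradation. In injured cord, blood, iron and infiltrating phagocytes are known sources of peroxides, and ferroptosis is a form of cell death in which membrane lipids are peroxidised and which GPX4 restrains.

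The motif searched for the antioxidant response element was TGACNNNGC on either strand, where N is any base. In the RefSeq promoter table of build GRCm38.p6, which covers 250 bases before to 50 bases after each annotated start, 53 members were found, and 10 of them held the motif in at least 1 promoter (18.9% of these members, against 14.0% of 27025 genes). These 10 windows are shown because they hold the letters of the element through which the family is known to be controlled. Each runs 5′ to 3′ on the strand of its gene, and capitals mark the motif, read on the other strand where it ends in GTCA.
Gclm, chr3:122245413-122245441, plus strand: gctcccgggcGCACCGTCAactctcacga
Gsta3, chr1:21240454-21240482, plus strand: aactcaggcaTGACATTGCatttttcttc
Gstm5, chr3:107895802-107895830, plus strand: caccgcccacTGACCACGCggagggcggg
Gstm7, chr3:107931725-107931753, minus strand: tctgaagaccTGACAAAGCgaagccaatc
Mgst1, chr6:138140461-138140489, plus strand: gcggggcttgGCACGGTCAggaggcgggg
Nfe2l2, chr2:75704885-75704913, minus strand: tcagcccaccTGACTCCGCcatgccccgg
Prdx1, chr4:116685456-116685484, plus strand: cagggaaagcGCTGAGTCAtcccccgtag
Sod1, chr16:90220696-90220724, plus strand: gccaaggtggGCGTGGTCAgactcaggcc
Srxn1, chr2:152105542-152105570, plus strand: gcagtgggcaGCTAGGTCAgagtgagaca
Txnrd1, chr10:82859104-82859132, plus strand: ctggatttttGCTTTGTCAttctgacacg
The site of Prdx1 overlaps the letters TGANTCA, a motif bound by AP-1 factors and also found in 7.81% of all promoters and in 9.09% of the 66 member promoters. A match is a description of letters and not of binding, and a promoter without one may hold an element outside the window.

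Library totals ran from 14752733 to 17802884 counts, and 0.632% to 0.743% of each total lay in the members. The library labelled control 1 had counts in 18884 genes against 22434 to 23414 in the other 7 and stood apart on the first principal component, which held 41.6% of the variance. On the second, with 18.8%, the libraries labelled control 3 and CKO 4 stood apart from the rest. Tia1, the targeted gene, was at 41.9, 24.4, 31.3 and 34.2 normalized CPM (counts per 1000000 after scaling of the libraries) in the control libraries and at 23.4, 27.8, 24.04 and 32.1 CPM in the CKO libraries. The groups overlapped, and a two-sided exact permutation test over 70 assignments gave p = 0.20, where the smallest possible p is 0.0286. The libraries labelled control 2 and CKO 4 each lay nearer to the mean of the opposite group than to that of their own. The labels do not state which exons were deleted, and cells outside the Nestin lineage would keep the gene. Directions below are therefore those between libraries as labelled. The cord was recognisable by markers of astrocytes, oligodendrocytes and neurons, none of which was at 0, and fibroblast, macrophage, neutrophil and muscle markers were present too. In such bulk tissue, fewer cells of a type and less RNA per cell cannot be told apart.

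Of the 59 members, 51 passed the low-count filter and were tested, and 8 did not. Gsta1, Gsta2 and Gpx5 had no counts in any library, where 3 counts would be 0.166 to 0.209 CPM. Of the 50-base stretches of the longest transcript, 89.7% for Gsta1 and 64.2% for Gsta2 are shared with other genes. How reads that fit several genes were counted is not known, so absence of these 2 transcripts cannot be read from the counts. Gstm3 had 5 counts in all 8 libraries together, Gstt4 and Gpx2 had 4 each, and Gpx6 and Gstp3 had 1 each. Gsta1 and Gsta2 are known mainly from liver, Gpx5 from epididymis, Gpx6 from olfactory epithelium and Gpx2 from gut epithelium. The levels of the others spanned a wide range per length. Measured as FPKM (fragments per kilobase of gene and 1000000 counts, as the authors deposited them), the mean over 8 libraries was highest for Gpx1 at 497, Gpx4 at 444, Prdx1 at 250, Prdx6 at 210, Txn1 at 157, Gstm1 at 142 and Gstp1 at 129. The peroxide-reducing enzymes thus stood at the top of the order. The enzymes that make glutathione were far lower, with Gclm at 14.5, Gclc at 12.02 and Gss at 3.98 FPKM, while glutathione reductase, Gsr, was at 22.4 FPKM. Gsta3, at 0.372 FPKM, was the lowest of the members tested.

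**Figure D1:**
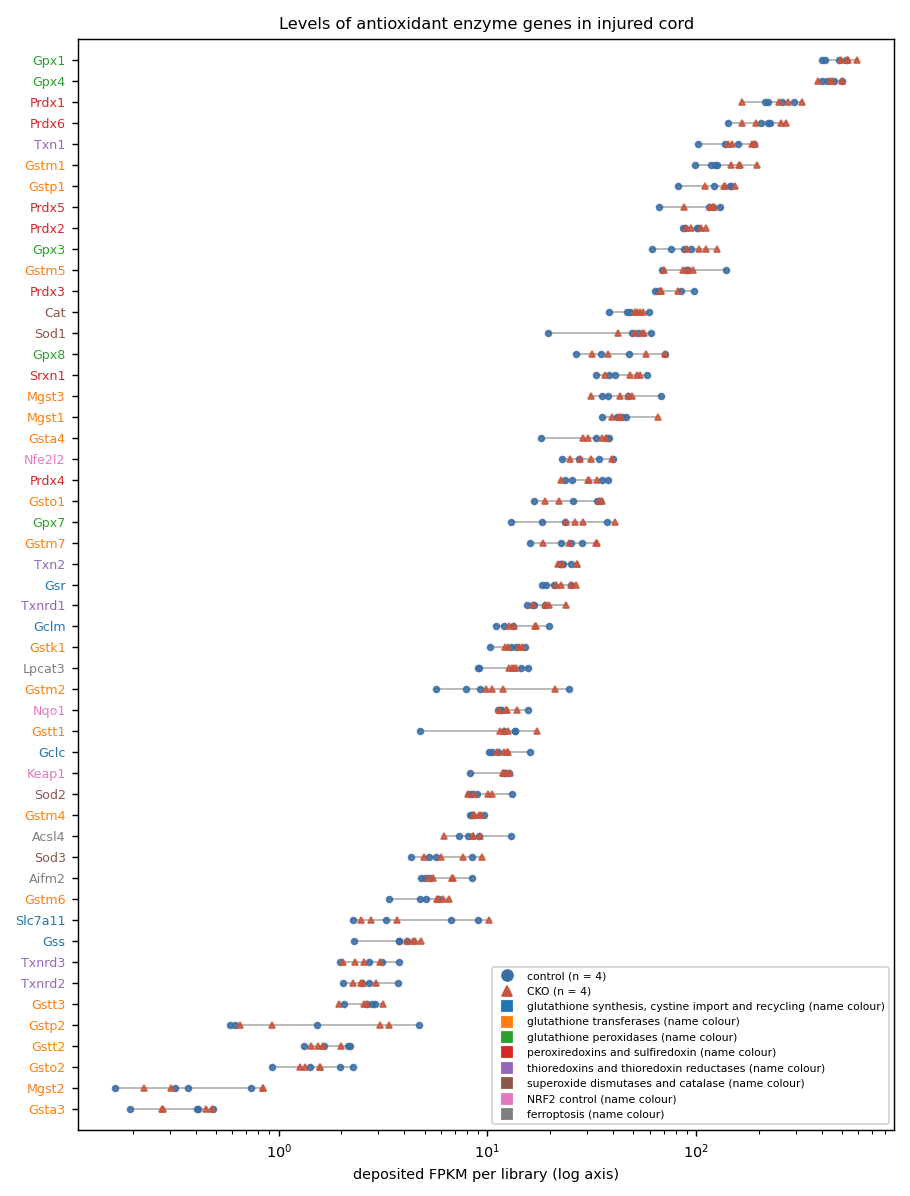
Deposited FPKM of each tested member on a log axis, with 1 point per library, circles for control and triangles for CKO, and names coloured by role. Gpx1 and Gpx4 lie at the top, with means of 497 and 444 FPKM, and the points of both groups lie among each other for nearly all members.

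Across the members, differences between the genotypes were small against the spread between libraries. No member passed an adjusted p of 0.05 by edgeR's quasi-likelihood test, as was the case for all 16537 genes tested (0% called, smallest adjusted p of 1.00). The Wald test of DESeq2 and limma called 0 members too. Unadjusted p was under 0.05 for 2 members, Gstm1 and Gpx3, both with the higher mean in CKO, which is 3.92% of the 51 against 1.42% of all genes in either direction. Of all genes, 0.496% had such a p with the higher mean in CKO and 0.919% with the lower one. The groups did not overlap for 1 member, Gstm1, which is 1.96% of the members against 1.19% of all genes in either direction, 0.701% higher in CKO and 0.49% lower. The mean was higher in CKO for 33 of 51 members and lower for 18, with a median log2 fold change of 0.08, against 7953 of 16537 genes higher and a median of -0.01 over all genes. Single members ran from -0.22 for Txnrd3 to 0.51 for Gstm1, and for 49 of 51 the 95% interval included 0. The median distance from a member's estimate to the end of its interval was 0.45 on the log2 scale. Changes smaller than that were mostly not separable from 0 even before adjustment. Larger ones could be missed too at the adjusted threshold. In simulated data, 1.5-fold and 2-fold changes of genes drawn at random were recovered at 4% and 38%. The simulation held no deviation of a library shared by many genes, so these shares are not recovery rates for the members. The spread between libraries of a group, as the median SD of log2 CPM, was 0.301 for the 51 members against 0.325 for all genes tested. At 10 CPM or more it was 0.295 for 45 members against 0.266 for 10604 genes.

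**Figure D2:**
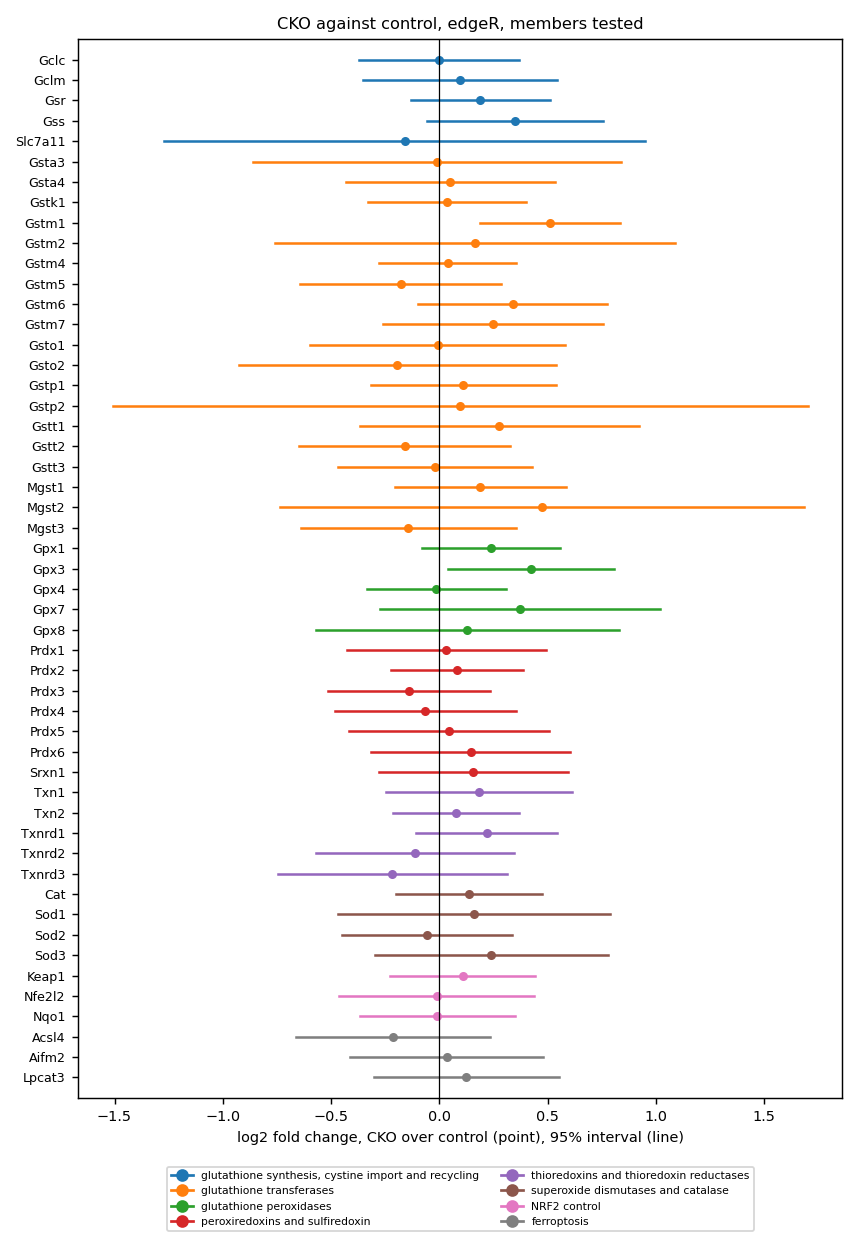
Log2 fold change of CKO over control for the 51 members tested, ordered by role and then by name and coloured by role, as points with 95% intervals from edgeR. The intervals of Gstm1 and Gpx3 lie above 0, and the other 49 cross it.

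Genes of glutathione synthesis, cystine import and recycling showed no shared shift. Of 5 tested, 3 had a higher mean in CKO and 2 a lower one, with a median log2 fold change of 0.09. Gclc, the catalytic subunit of glutamate-cysteine ligase, was at 61.8, 38.7, 42.4 and 40.1 CPM in control and at 47.7, 45.7, 42.2 and 46.8 CPM in CKO. The library labelled control 1 was above the other 7, which lay close together in both groups. The group means of Gclc were 45.8 ± 10.8 and 45.6 ± 2.40 CPM (SD, n = 4 each), a log2 fold change of -0.0032 (SE 0.17, 95% interval -0.37 to 0.37). Gclm, its modifier subunit, was at 127, 84.4, 75.8 and 69.9 CPM in control and at 109, 107, 80.9 and 84.1 CPM in CKO, with control 1 again the highest. Its log2 fold change was 0.09 (SE 0.20, -0.35 to 0.54), 0.31 without control 1 and 0.00012 without control 4. Gss, glutathione synthetase, had the smallest unadjusted p of this role. It was at 14.0, 22.6, 22.3 and 24.7 CPM in control and at 27.0, 26.4, 28.6 and 24.5 CPM in CKO, so that the ranges met between 24.5 and 24.7 CPM and control 1 was the lowest library. The log2 fold change was 0.35 (SE 0.18, -0.06 to 0.75, unadjusted p = 0.0858 and adjusted p = 1.00 by edgeR), and 0.20 without control 1. Gss lies opposite Acss2, which had 3685 counts against 3218 of Gss, and whether the counting separated the strands is not known. Gsr, which returns oxidised glutathione to its reduced form, was at 59.1, 53.2, 69.1 and 50.8 CPM in control and at 70.01, 73.6, 59.2 and 61.9 CPM in CKO, with a log2 fold change of 0.19 (SE 0.15, -0.13 to 0.51).

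Slc7a11, the cystine and glutamate antiporter, varied the most within groups of the members named by rule. It was at 95.4, 46.1, 125 and 32.0 CPM in control and at 35.0, 51.9, 38.7 and 141 CPM in CKO. The libraries labelled CKO 4, control 3 and control 1 were high, the other 5 lay between 32.0 and 51.9 CPM, and the highest library was 4.41 times the lowest. The group means were 74.6 ± 43.2 and 66.7 ± 50.2 CPM (SD, n = 4 each), with a log2 fold change of -0.16 (SE 0.50, -1.27 to 0.95). The estimate was 0.22 without control 3, -0.83 without CKO 4 and -0.46 without both. Control 2 and CKO 4, the libraries whose Tia1 level lay nearer to the opposite group, were also left out, a removal chosen after seeing the data. It took out CKO 4, the highest library at 141 CPM. Without them the estimate for Slc7a11 was -1.01, with an unadjusted p of 0.0479 and an adjusted p of 0.99 by edgeR. The 250 bases before its start are shown because it is the single member with TGATGCAA, a motif bound by factors of the ATF4 and C/EBP kind, which was found in 0.895% of all promoters. Capitals mark the 2 copies, one on each strand, in RefSeq sequence of GRCm38.p6, minus strand.
Slc7a11, chr3:50443614-50443863: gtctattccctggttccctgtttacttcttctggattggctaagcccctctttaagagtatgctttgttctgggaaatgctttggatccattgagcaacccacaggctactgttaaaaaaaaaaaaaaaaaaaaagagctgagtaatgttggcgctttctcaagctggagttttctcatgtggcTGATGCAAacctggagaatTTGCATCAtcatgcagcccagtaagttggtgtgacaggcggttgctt

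Glutathione transferases were the largest role, with 24 members and 19 tested. The mean was higher in CKO for 12 and lower for 7, with a median log2 fold change of 0.05. Gstm1, a cytosolic transferase of the mu class that astrocytes are known to express, had the largest estimate of all members. It lies on the minus strand at chr3:108012255-108017973 (GRCm38). It was at 148, 182, 174 and 188 CPM in control and at 292, 219, 239 and 239 CPM in CKO. Every CKO library was above every control library, with the nearest values at 188 and 219 CPM. The group means were 173 ± 17.6 and 247 ± 31.5 CPM (SD, n = 4 each), a log2 fold change of 0.51 (SE 0.15, 0.19 to 0.83). The unadjusted p was 0.00509 and the adjusted p was 1.00 by edgeR's quasi-likelihood test. Leaving out each library in turn gave 0.42 to 0.57, with unadjusted p of 0.00644 to 0.0239. Summed astrocyte markers overlapped between the groups. They were at 17136, 16546, 10772 and 16368 CPM in control and at 15527, 13175, 16956 and 12501 CPM in CKO, with all 10 markers matched and none at 0. Most of that sum was Gfap. Of the 10 markers, 7 had a lower mean in CKO and 3 a higher one. Of 50-base stretches of the longest Gstm1 transcript, 23.1% are shared with 5 other genes, most of all with the pseudogene Gstm2-ps1, which had 381 counts against 28472 of Gstm1. The 250 bases before the start of the gene as annotated in the deposited table are shown, since this gene had the largest estimate. None of the 3 motifs is in them, nor in the same length before a second start that RefSeq places inside the gene.
Gstm1, chr3:108017974-108018223, minus strand: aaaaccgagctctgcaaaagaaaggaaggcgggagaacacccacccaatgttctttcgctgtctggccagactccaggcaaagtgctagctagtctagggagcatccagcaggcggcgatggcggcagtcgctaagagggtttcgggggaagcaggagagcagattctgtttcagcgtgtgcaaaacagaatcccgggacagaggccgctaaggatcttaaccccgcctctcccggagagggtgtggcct

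The neighbours of Gstm1 in the mu cluster of chromosome 3 did not share its pattern of groups that do not overlap; they were chosen for description after their values were seen. Gstm5 was at 117, 179, 87.6 and 118 CPM in control and at 111, 125, 118 and 89.8 CPM in CKO, with a log2 fold change of -0.18 (SE 0.21). It was highest in the library labelled control 2, and an antisense gene on the other strand had 5320 counts against 15832 of Gstm5. Gstm4 stayed between 14.1 and 16.6 CPM in all 8 libraries, where the highest over the lowest was 1.17, the smallest such ratio of the members tested, and its log2 fold change was 0.04 (SE 0.14). Gstm6 was at 9.66, 10.2, 6.71 and 11.7 CPM in control and at 13.2, 12.3, 11.6 and 11.4 CPM in CKO, with a log2 fold change of 0.34 (SE 0.20, -0.10 to 0.78). Its ranges overlapped through control 4 alone. Gstm7 had an estimate of 0.25 (SE 0.23). Gstm2 was at 9.80, 15.7, 41.3 and 13.4 CPM in control and at 16.6, 20.1, 17.8 and 35.5 CPM in CKO. Control 3 and CKO 4 were the high libraries, and the log2 fold change of 0.17 (SE 0.42) became 0.80 without control 3 and -0.14 without CKO 4.

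Transferases of the other classes had estimates near 0 or wide intervals. Gsta4, which conjugates the lipid peroxidation product 4-hydroxynonenal, was at 23.4, 47.6, 42.1 and 48.8 CPM in control and at 47.3, 36.6, 45.4 and 38.5 CPM in CKO. Control 1 was the lowest, and the log2 fold change was 0.05 (SE 0.22, -0.43 to 0.53). Gstp1, the pi-class enzyme, was at 63.7, 113, 92.7 and 111 CPM in control and at 104, 117, 106 and 83.8 CPM in CKO, again with control 1 the lowest, and a log2 fold change of 0.11 (SE 0.19). Its transcript shares 62.3% of its 50-base stretches with Gstp2, which had 204 counts against 13343 of Gstp1, so that the division between both copies is uncertain. Mgst1, a membrane-bound transferase and peroxidase, was at 72.8, 84.9, 92.9 and 89.8 CPM in control and at 87.1, 133, 80.6 and 87.5 CPM in CKO. The library labelled CKO 2 was the highest, and the log2 fold change was 0.19 (SE 0.18), or 0.00 without CKO 2. Gstt1, a theta-class enzyme described after its values were seen, was at 7.44, 18.4, 20.8 and 21.1 CPM in control and at 26.5, 17.8, 19.4 and 18.4 CPM in CKO. Its log2 fold change of 0.28 (SE 0.29) was 0.03 without control 1. The remaining tested transferases ran from -0.19 for Gsto2 to 0.47 for Mgst2, the latter with a 95% interval of -0.74 to 1.68.

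Of the glutathione peroxidases, 5 of 8 were tested, 4 had a higher mean in CKO and 1 a lower one, and the median log2 fold change was 0.24. Gpx1, the abundant cytosolic selenoenzyme that reduces hydrogen peroxide, was at 715, 583, 751 and 603 CPM in control and at 862, 781, 766 and 716 CPM in CKO. The 4 CKO libraries lay at or above 716 CPM, and of the control libraries control 3 reached into their range. The group means were 663 ± 82.3 and 781 ± 60.2 CPM (SD, n = 4 each), a log2 fold change of 0.24 (SE 0.14, -0.08 to 0.56). Gpx3, the secreted form of extracellular fluid and plasma, was at 176, 112, 159 and 139 CPM in control and at 189, 230, 204 and 164 CPM in CKO. Control 1 was above CKO 4, and the other values did not cross. The group means were 147 ± 27.6 and 197 ± 27.7 CPM (SD, n = 4 each), and the log2 fold change was 0.42 (SE 0.17, 0.04 to 0.81). The unadjusted p was 0.0328 and the adjusted p was 1.00 by edgeR's quasi-likelihood test. The estimate of Gpx3 was 0.32 to 0.52 with 1 library left out, while its unadjusted p ran from 0.00879 to 0.102, being above 0.05 without control 2, control 4, CKO 1, CKO 2 or CKO 3.

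Gpx4, which reduces lipid hydroperoxides within membranes and restrains ferroptosis, was nearly equal in both groups. It was at 811, 866, 688 and 739 CPM in control and at 783, 866, 766 and 662 CPM in CKO. The lowest libraries were control 3 and CKO 4, and the highest library was 1.31 times the lowest. The group means were 776 ± 78.5 and 769 ± 83.8 CPM (SD, n = 4 each), with a log2 fold change of -0.01 (SE 0.15, -0.33 to 0.31). Of the 50-base stretches of its transcript, 61.7% are shared with the pseudogene Gpx4-ps2, which had 18543 counts against 103523 of Gpx4. Gpx7 and Gpx8, peroxidases of the endoplasmic reticulum described after their values were seen, were higher in control 3 and CKO 4 than elsewhere. Gpx7 was at 17.1, 30.7, 48.4 and 23.9 CPM in control and at 31.1, 37.2, 34.4 and 53.0 CPM in CKO, and its log2 fold change of 0.37 (SE 0.29) was 0.71 without control 3 and 0.18 without control 1. Gpx8 was at 28.6, 36.9, 74.6 and 50.8 CPM in control and at 33.6, 61.1, 39.9 and 74.4 CPM in CKO, with a log2 fold change of 0.13 (SE 0.32).

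**Figure D3:**
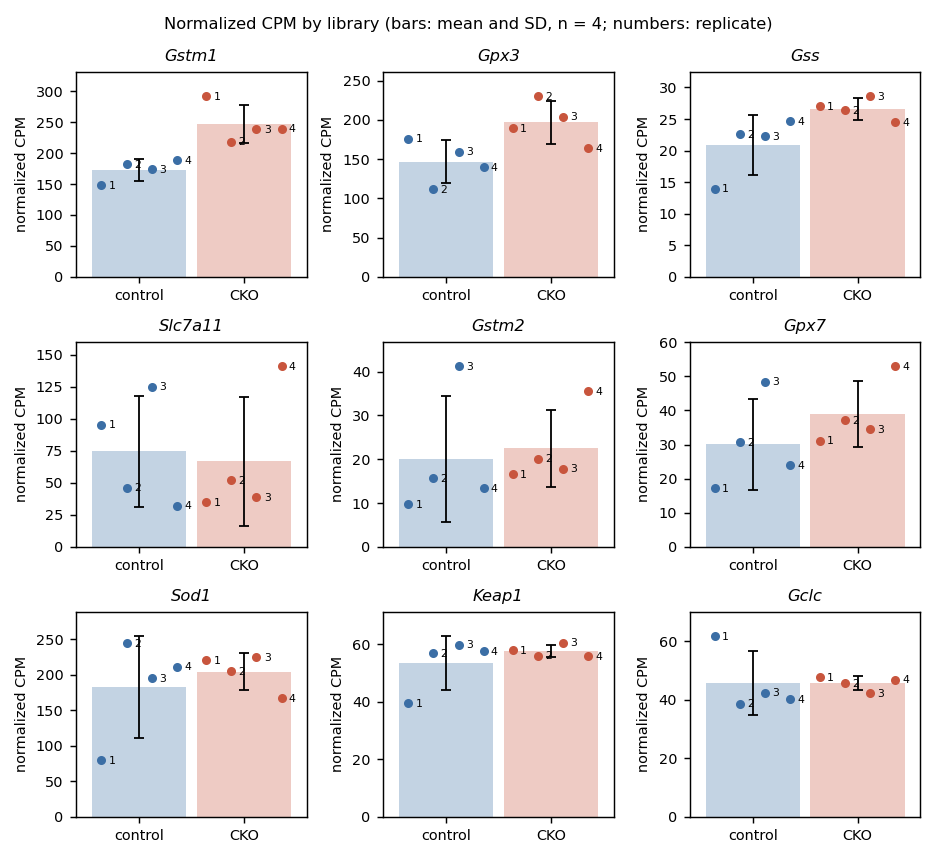
Normalized CPM of chosen members in each library, with control and CKO side by side, the replicate number at each point and bars for the mean and SD of 4 libraries. For Gstm1 the 2 groups do not overlap, Gpx3 overlaps through control 1 and CKO 4, and Slc7a11 spans 32.0 to 141 CPM with high and low libraries in both groups.

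Gstm1 and Gpx3 were compared with the cell markers of the same libraries. Summed levels of all 11 marker lists overlapped between the groups. The neutrophil list was the one whose members leaned most to CKO, with a higher mean for 14 of 14 markers, 3 of them at an unadjusted p under 0.05 and none past the adjusted threshold by edgeR. Its sum was at 883, 778, 715 and 337 CPM in control and at 843, 2224, 691 and 682 CPM in CKO, so that it was high in CKO 2 and low in control 4. CKO 2 also held the highest Gpx3, at 230 CPM, while Gstm1 was lowest there among the CKO libraries, at 219 CPM. Neuron markers leaned to control, with a lower mean in CKO for 11 of 12. Their sum was at 1983, 3173, 1258 and 1681 CPM in control and at 1655, 1693, 1824 and 1410 CPM in CKO. Control 2 alone was high, and the CKO libraries lay within the control range. The part of these markers in the levels of Gstm1 and Gpx3 was not tested.

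Peroxiredoxins, which reduce peroxides through a reactive cysteine, and sulfiredoxin, which repairs them once overoxidised, were all tested. Of these 7, 5 had a higher mean in CKO and 2 a lower one, with a median log2 fold change of 0.04. Prdx1, the cytosolic enzyme induced by oxidative stress, was at 920, 654, 785 and 680 CPM in control and at 852, 987, 510 and 760 CPM in CKO. The CKO group held both the highest and the lowest library, and the log2 fold change was 0.03 (SE 0.21, -0.43 to 0.49). Prdx6, the member that uses glutathione and is strong in astrocytes, was at 1113, 992, 686 and 1076 CPM in control and at 1303, 943, 1234 and 797 CPM in CKO. Its lowest libraries were control 3 and CKO 4, and its log2 fold change was 0.15 (SE 0.21). Prdx3, the mitochondrial form, had the smallest unadjusted p of this role, 0.427 by edgeR's quasi-likelihood test with an adjusted p of 1.00. It was at 147, 127, 93.6 and 98.4 CPM in control and at 100, 122, 101 and 100 CPM in CKO, with a log2 fold change of -0.14 (SE 0.17). Control 1 was its highest library. Srxn1, sulfiredoxin, was at 95.2, 166, 107 and 117 CPM in control and at 137, 153, 148 and 103 CPM in CKO. Control 2 was the highest and control 1 the lowest, and the log2 fold change was 0.16 (SE 0.20). Prdx2, Prdx4 and Prdx5 had estimates of 0.08, -0.07 and 0.04.

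Thioredoxins and their NADPH-dependent reductases were 5 members, 3 with a higher mean in CKO and 2 with a lower one, and a median log2 fold change of 0.08. Txn1, cytosolic thioredoxin, was at 110, 169, 198 and 146 CPM in control and at 196, 204, 151 and 156 CPM in CKO. Control 1 was the lowest and the other libraries mixed, with a log2 fold change of 0.18 (SE 0.19, -0.25 to 0.61). Txnrd1, the cytosolic reductase and a selenoprotein, was at 122, 110, 133 and 119 CPM in control and at 170, 140, 119 and 133 CPM in CKO. CKO 1 was alone at 170 CPM, and the log2 fold change was 0.22 (SE 0.15, -0.11 to 0.54). Txn2 and Txnrd2, of mitochondria, had estimates of 0.08 and -0.11. Txnrd3, known from mouse testis, had the lowest estimate of the members at -0.22 (SE 0.24, -0.74 to 0.31).

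Superoxide dismutases and catalase had a higher mean in CKO for 3 of 4, with a median log2 fold change of 0.15. Sod1, the cytosolic copper and zinc enzyme, was at 79.6, 244, 195 and 211 CPM in control and at 220, 205, 225 and 167 CPM in CKO. Control 1 lay far below the other 7 libraries, and the log2 fold change of 0.16 (SE 0.28, -0.47 to 0.79) was -0.09 without it. Sod2, the manganese enzyme of mitochondria, was at 91.1, 132, 84.6 and 83.1 CPM in control and at 106, 81.2, 102 and 86.8 CPM in CKO. The library labelled control 2 was the highest, and the log2 fold change was -0.06 (SE 0.18). Sod3, the secreted extracellular enzyme, had the smallest unadjusted p of this role, 0.346 by edgeR with an adjusted p of 1.00. It was at 16.5, 19.8, 31.6 and 21.5 CPM in control and at 18.8, 22.7, 28.7 and 35.3 CPM in CKO, with a log2 fold change of 0.24 (SE 0.24). Cat, catalase of peroxisomes, was at 158, 101, 126 and 124 CPM in control and at 147, 134, 138 and 140 CPM in CKO. The CKO libraries lay close together inside the control range, and the log2 fold change was 0.14 (SE 0.15, -0.20 to 0.47).

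The genes of NRF2 control did not differ beyond their spread. Nfe2l2 was at 155, 87.1, 130 and 106 CPM in control and at 95.3, 120, 107 and 151 CPM in CKO. Control 1 and CKO 4 were its highest libraries, and the group means were 119 ± 29.3 and 118 ± 23.8 CPM (SD, n = 4 each), a log2 fold change of -0.01 (SE 0.20, -0.46 to 0.44). Keap1, the sensor that directs NRF2 to degradation, was at 39.6, 57.0, 59.8 and 57.6 CPM in control and at 58.0, 56.1, 60.5 and 55.9 CPM in CKO. All libraries but control 1 lay within 55.9 to 60.5 CPM, and the log2 fold change was 0.11 (SE 0.15). Nqo1, a quinone reductase and a textbook target of NRF2, was at 24.9, 17.7, 18.1 and 18.2 CPM in control and at 19.3, 17.9, 19.5 and 21.6 CPM in CKO, with a log2 fold change of -0.01 (SE 0.16, -0.37 to 0.35). It was highest in control 1, where Nfe2l2 was highest and Keap1 lowest. Of all genes tested, 27.5% were also highest and 29.4% lowest in control 1. Of the 10 members with TGACNNNGC in a promoter, listed with their windows above, 7 had the higher mean in CKO. Their log2 fold changes ran from -0.18 to 0.25 with a median of 0.12. Of the 35 tested members of the promoter table without it, 22 had a higher mean, with a median of 0.08.

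Among the genes of ferroptosis beside Gpx4 and Slc7a11, 2 of 3 had a higher mean in CKO and the median log2 fold change was 0.03. Acsl4, which activates the polyunsaturated fatty acids that become peroxidised, was at 72.0, 44.1, 49.4 and 40.1 CPM in control and at 46.4, 46.6, 33.9 and 50.002 CPM in CKO. Control 1 was its highest library, and the log2 fold change of -0.21 (SE 0.20, -0.66 to 0.23) was -0.01 without it. Lpcat3, which places such fatty acids into phospholipids, was at 30.2, 30.1, 47.4 and 51.9 CPM in control and at 44.1, 45.03, 43.4 and 41.5 CPM in CKO. The CKO libraries lay inside the control range, with a log2 fold change of 0.12 (SE 0.19). Lpcat3, with 5655 counts, overlaps Emg1 on the other strand, with 7258. Aifm2, also called FSP1, which reduces coenzyme Q at the membrane, was at 21.2, 20.1, 34.8 and 22.2 CPM in control and at 28.4, 28.2, 22.8 and 21.4 CPM in CKO. Control 3 was its highest library, and the log2 fold change was 0.03 (SE 0.20).

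**Figure D4:**
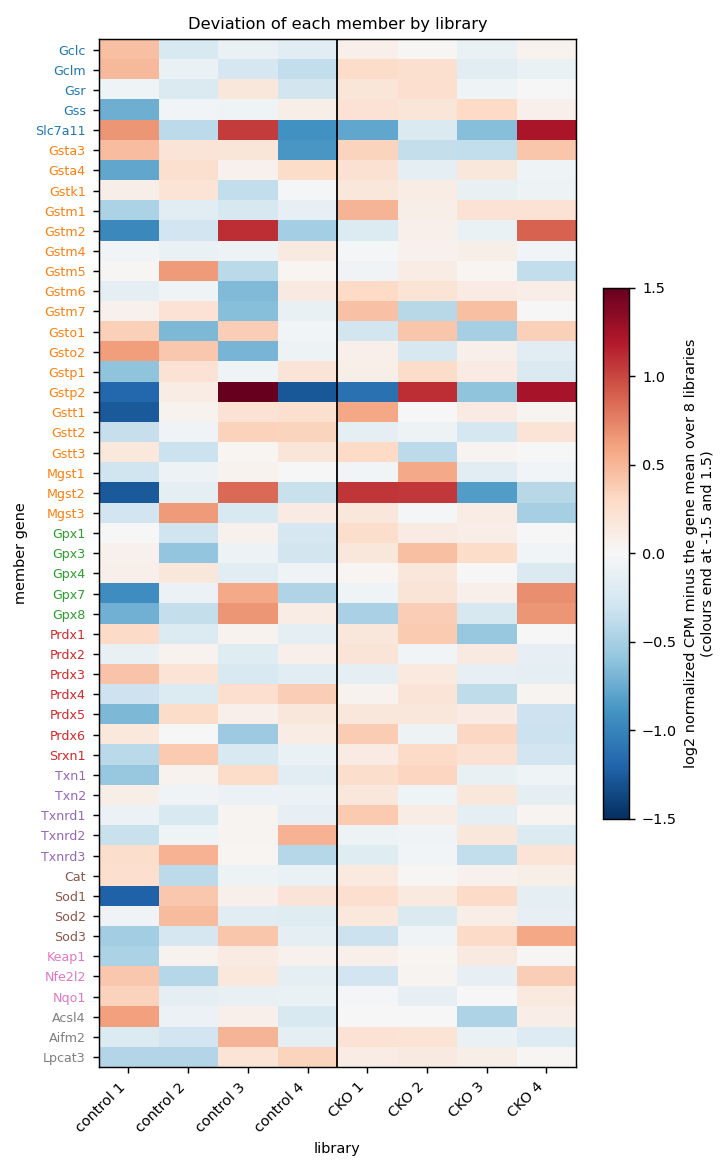
Log2 normalized CPM of each member in each library minus the mean of that gene over 8 libraries, grouped by role, with control to the left of the line and CKO to the right. The column of control 1 holds the deepest lows, such as Sod1 and Gstt1, beside highs such as Acsl4 and Gclm, and control 3 and CKO 4 share highs of Slc7a11, Gstm2, Gpx7 and Gpx8.

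Single libraries stood out in many of the members. In the library labelled control 1, 18 of 51 members lay below all other 7 libraries and 9 lay above them, against 29.4% and 27.5% of all genes tested. Members below were led, among those over 5 CPM there, by Gstt1 at 0.366 and Sod1 at 0.380 of the mean of the other 7, followed by Gstm2 at 0.427 and Gpx7 at 0.463. Members above included Acsl4 at 1.62, Gclm at 1.45, Gclc at 1.42, Prdx3 at 1.39, Nfe2l2 at 1.36 and Nqo1 at 1.32 times that mean. This library thus combined low levels of several transferases, Sod1 and Txn1 with high levels of both subunits of glutamate-cysteine ligase. It was also the library with the fewest genes detected. The median gene length was 2076 bases for the 18 members below, 2430 for the 24 within and 3766 for the 9 above. The part of gene length in these levels was not tested. The library labelled CKO 1 was the highest of 8 for 10 members (19.6%) and the lowest for 0, against 9.42% and 8.55% of all genes.

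The libraries labelled control 3 and CKO 4 were the highest 2 for 6 members, Gstp2, Slc7a11, Gstm2, Gpx8, Gpx7 and Sod3, which is 11.8% of 51 against 8.30% of all genes tested. Their mean over the other 6 libraries was 3.24-fold for Gstp2, 2.67-fold for Slc7a11, 2.46-fold for Gstm2, 1.78-fold for Gpx8, 1.74-fold for Gpx7 and 1.57-fold for Sod3. They were the lowest 2 for 5 others, Gstm5, Gpx4, Prdx2, Prdx6 and Txn2, which is 9.80% of 51. The share of all genes lowest in both was not computed, so this count has no background beside it. Both libraries also had the highest summed level of fibroblast markers. The 10 fibroblast markers, none at 0, summed to 5682 CPM in control 3 and 4937 CPM in CKO 4 against 2480 to 3720 CPM in the other 6, and for 7 of the 10 these were the 2 highest libraries. Astrocyte markers summed to 10772 and 12501 CPM there against 13175 to 17136 CPM elsewhere, but most of that sum was Gfap, and these were the 2 lowest libraries for 3 of the 10 astrocyte markers. The same 2 were lowest for 6 of 10 oligodendrocyte markers, 4 of 12 neuron markers and 3 of 8 ependymal markers. Slc1a2 and Gja1, the glutamate transporter and gap junction protein of astrocytes, were highest among the CKO libraries in CKO 4, at 804 and 224 CPM. Gfap, Aldh1l1, Aldoc, Sox9, S100b and Slc7a10 were lowest there among the CKO libraries, and Aqp4 and Slc1a3 lay in between. The part of these cells in the levels of the 6 members was not tested.

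**Figure D5:**
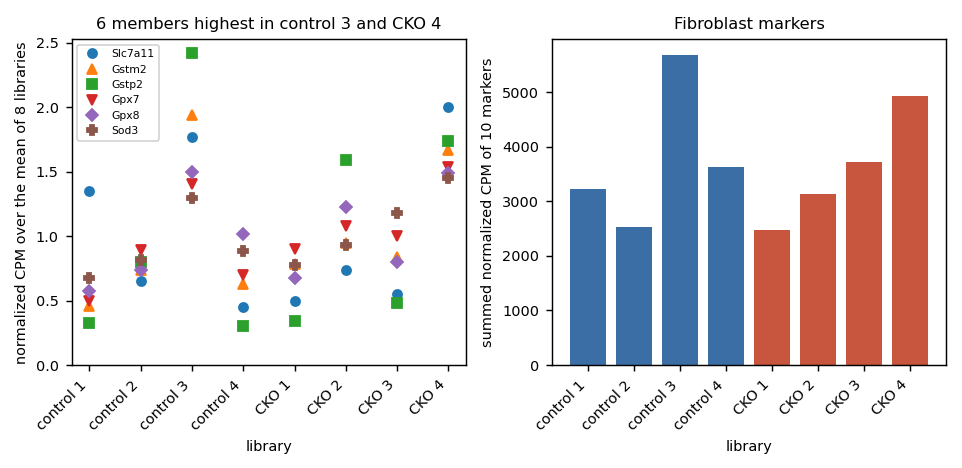
Left, normalized CPM of 6 members in each library, divided by that gene's mean over 8 libraries; right, summed normalized CPM of 10 fibroblast markers in the same libraries. Slc7a11, Gstm2, Gstp2, Gpx7, Gpx8 and Sod3 are highest in control 3 and CKO 4, the libraries with the highest marker sums, 5682 and 4937 CPM.

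Genes outside the members that share their pathways were described by 7 lists, none of which held a gene past an adjusted p of 0.05 by edgeR's quasi-likelihood test. Unadjusted p was under 0.05 for Nfe2 and Alox5. Other genes known as antioxidant response targets had a higher mean in CKO for 18 of 20, with a median log2 fold change of 0.19, against 48.1% of all genes with a higher mean. Control 1 was the lowest library for Cbr1, at 13.4 CPM against 31.2 to 41.1 CPM elsewhere, and for Blvrb, at 16.3 against 35.5 to 51.2 CPM. It was also the lowest for Ftl1, G6pdx, Pgd, Tkt, Osgin1, Cbr3 and Tfe3. Of all genes tested, 29.4% were lowest in control 1. The part of this library in the count of 18 was not tested. G6pdx, which supplies NADPH from glucose 6-phosphate, was at 55.9, 61.3, 86.1 and 80.1 CPM in control and at 101, 93.0, 83.2 and 81.2 CPM in CKO, with a log2 fold change of 0.34 (SE 0.17, -0.03 to 0.71). Fth1, the ferritin heavy chain that stores iron, had the same estimate of 0.34 (SE 0.17, -0.04 to 0.72). Hmox1, heme oxygenase 1, named after its values were seen, was at 236, 232, 953 and 442 CPM in control and at 1768, 798, 285 and 302 CPM in CKO. It was high in CKO 1, control 3 and CKO 2, and its log2 fold change of 0.76 had an SE of 0.61. Regulators and partners of NRF2 had a higher mean in CKO for 7 of 14, with a median of 0.03. Nfe2, a relative of NRF2 known from blood cells, was at 1.95, 2.08, 2.11 and 1.59 CPM in control and at 3.88, 6.03, 2.89 and 2.03 CPM in CKO. Its log2 fold change was 0.94 (SE 0.35, 0.16 to 1.72), and CKO 2, with the highest neutrophil sum of 2224 CPM, was its highest library. Bach2, a repressor that competes for such elements, had an estimate of 0.39 (SE 0.23).

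Other glutathione enzymes, 22 tested, were even, with 12 higher and 10 lower and a median log2 fold change of 0.01. The smallest unadjusted p among them belonged to Ggt1, which cleaves extracellular glutathione, with means of 0.796 ± 0.423 CPM (control) and 1.46 ± 0.406 CPM (CKO; SD, n = 4 each), and to Slc1a4, a transporter of neutral amino acids, with an estimate of -0.27 (SE 0.16). Other ferroptosis genes had a higher mean in CKO for 9 of 23 and a median of -0.01. Alox5, a lipoxygenase of myeloid cells, was at 11.5, 10.996, 12.2 and 14.2 CPM in control and at 15.6, 19.2, 17.1 and 13.5 CPM in CKO, with an estimate of 0.42 (SE 0.17, 0.04 to 0.80). Control 4 lay above CKO 4, and CKO 2 was the highest. Tfrc, the transferrin receptor, had an estimate of -0.44 (SE 0.24, -0.97 to 0.09). Subunits of the NADPH oxidase, the superoxide source of phagocytes, were tested for 8 of 13, with 6 higher and a median of 0.22. Its cytosolic subunits Ncf1 and Ncf4 had estimates of 0.38 (SE 0.19) and 0.41 (SE 0.22), and both were highest in CKO 2, at 158 and 32.3 CPM. Selenoprotein synthesis, on which GPX1, GPX3, GPX4 and the thioredoxin reductases depend, was even, with 5 of 9 higher and a median of 0.03. Its genes of smallest unadjusted p were Pstk at -0.20 (SE 0.20) and Sephs2 at 0.09 (SE 0.14). Metallothioneins and methionine sulfoxide reductases had a higher mean for 7 of 7 but a median of 0.10. Among these, Msrb1, a selenoprotein, had an estimate of 0.22 (SE 0.13) and Mt3, the brain metallothionein, 0.32 (SE 0.37).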

How the data were processed

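Total RNA of 8 samples was isolated with TRIzol and made into libraries with a NEBNext Ultra RNA kit, per the labels' protocols. The authors deposited whole-number read counts per gene, not normalized, and FPKM values. Tools named in the submitters' processing notes, with no roles, are HISAT2 2.0.5, CASAVA 1.8, DESeq2 1.20.0, fastp and featureCounts 1.5.0-p3. The notes name a human genome build, although the tables hold mouse identifiers. Of the 59 members, 55 had the same start and end in GENCODE M21 on GRCm38, and 4 differed at 1 end. For strand use and multimapping, settings were not given in the sources used here. A gene overlaps 21 of the members. Each deposited FPKM value equalled the count divided by gene length and 1 constant per library, within a relative 5.11e-15.

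Counts were tested with edgeR 4.0.16 in R 4.3.3: filterByExpr by group (minimum count 10, minimum total 15), TMM scaling, the robust quasi-likelihood test of CKO against control, and Benjamini-Hochberg adjustment over 16537 genes. SEs are log2 fold changes over root F, with intervals of 95%. A floor of 3 counts covers counting error only. Alternatives were scaling by DESeq2 size factors, all genes kept, a minimum of 1 CPM in 4 libraries, each library left out, the replicate number as a block, the Wald test of DESeq2 1.42.0, and limma 3.58.1 on counts (voom) or on log2(FPKM + 1) and log2(FPKM + 0.1). Sample groups came from the titles. On simulated data for this comparison with 16289 genes, with 50 altered at each size, the share recovered was 4% at 1.5-fold, 38% at 2-fold, 74% at 3-fold and 94% at 4-fold, beside 6 false calls. The simulated counts were drawn independently for each gene and library, unlike the real libraries, where control 1 stood apart in many genes. The members and all lists were chosen with earlier results of these data known. Of 114 marker genes, 113 were matched. Members were named with full values where they had the smallest unadjusted p or the highest FPKM of their role, an unadjusted p under 0.05, groups that do not overlap, or a place on a list of 26 central genes; of each pathway list, the 2 genes of smallest unadjusted p. Shared stretches of 50 bases were counted between GENCODE M21 transcripts.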

Additional observations from a re-analysis of the deposited data

Results flagged for a closer look

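The 28 members named by rule and Tia1 gave 58 groups of 4 libraries. All come from the same 8 libraries and are not independent. The rate of about 1 in 20 by chance holds for a single group, and the count of groups cannot be judged by it. In 8 of the 58 groups, 1 library stood apart from the other 3 by Dixon's criterion at 95%. The library labelled control 1 accounted for 3 of these: Gclc was at 61.8 CPM there with the other 3 control libraries at 38.7 to 42.4 CPM, Nqo1 at 24.9 CPM against 17.7 to 18.2 CPM, and Keap1 at 39.6 CPM against 57.0 to 59.8 CPM. The library labelled CKO 2 accounted for 2: Mgst1 was at 133 CPM there against 80.6 to 87.5 CPM in the other CKO libraries, and Prdx3 was at 122 CPM against 100 to 101 CPM. Slc7a11 was at 141 CPM in the library labelled CKO 4 against 35.0 to 51.9 CPM in the other CKO libraries. Among control libraries, that labelled control 2 had Sod2 at 132 CPM, where the other 3 had 83.1 to 91.1 CPM, and that labelled control 3 had Aifm2 at 34.8 CPM, where the other 3 had 20.1 to 22.2 CPM.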

How the results depend on the processing

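No member passed an adjusted p of 0.05 in any fit run, and the DESeq2 Wald test called 1 gene in all, Saa3, which is not a member. Members with an unadjusted p under 0.05 numbered 2 as reported and 1 to 4 with 1 library left out. They numbered 3 without control 3 and CKO 4 and 4 (Gpx3, Gstm1, Slc7a11, Srxn1) without control 2 and CKO 4, both chosen after seeing the data. With the replicate number as a block, 1 member (Gstm1) remained under 0.05. Same-numbered libraries deviated with correlations of -0.33 to 0.05. These values showed no shared deviation, but they cannot tell whether the samples were paired by design. The median log2 fold change of the members kept its sign, at 0.047 to 0.134. Of 504 alternative values for named members, 454 kept their direction and 50 did not, those of 12 members with estimates of -0.16 to 0.16 as reported; the cause was not tested. Gclc was 0.020 with no filter, 0.021 with the block, 0.0048 with DESeq2, 0.025 with limma-voom, 0.024 with FPKM + 1 and 0.027 with FPKM + 0.1. Nfe2l2 was 0.010 with no filter, 0.00046 with the block, and 0.0046 and 0.0051 with FPKM + 1 and + 0.1. Nqo1 was 0.014, 0.0020, 0.011 with limma-voom, 0.0065 and 0.0075 in the same order. Gpx4 was 0.0061 with no filter, 0.0028 without control 3 and CKO 4 and 0.11 without control 2 and CKO 4, where Prdx1 was -0.022 and Sod2 0.16. With 1 library left out, the range was -0.074 to 0.18 for Gclc, -0.83 to 0.22 for Slc7a11, -0.14 to 0.16 for Gsta4, -0.038 to 0.20 for Gstp1, -0.074 to 0.054 for Gpx4, -0.10 to 0.19 for Prdx1, -0.088 to 0.33 for Sod1, -0.12 to 0.12 for Sod2, -0.012 to 0.17 for Keap1, -0.15 to 0.14 for Nfe2l2, -0.057 to 0.12 for Nqo1 and -0.050 to 0.25 for Aifm2. At this depth, 3 counts in a library are 0.166 to 0.209 CPM.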
